A study of Mus musculus with 13 samples.

Results

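The dual-specificity MAP kinase phosphatases were examined in the CA1 region of mouse organotypic entorhino-hippocampal tissue cultures after loss of distinct inputs. The 10 genes were Dusp1, Dusp2, Dusp4, Dusp5, Dusp6, Dusp7, Dusp8, Dusp10, Dusp14 and Dusp16, chosen by symbol among the 55291 gene symbols of the count tables, and all 10 were present. RNA was sequenced from 13 wildtype C57BL/6 cultures: 5 non-lesioned controls, 4 cultures after Schaffer collateral lesion (SCL), which cuts the CA3 axons that reach CA1, and 4 cultures after entorhinal cortex lesion (ECL), which cuts the perforant path. All cultures were made at postnatal day 4 to 5 and matured for at least 18 days in vitro, and the CA1 region of a single culture was isolated 3 days after the lesion. The labels and the study's methods do not say which cultures came from the same animal, so the p-values measure the spread between cultures. They name CA1 as the tissue, while the protocol in the labels speaks of the dentate gyrus. Each of the 5 CA1 pyramidal neuron markers was detected in every group, with a summed level of 217 to 293 CPM (counts per 1000000 counts, scaled between libraries) in controls, 227 to 260 after SCL and 189 to 397 after ECL. Markers of CA3 pyramidal neurons and of dentate granule cells were also detected in every group. In controls their sums were 52.3 to 81.7 CPM and 13.7 to 21.1 CPM. Detection alone thus does not tell these regions apart.

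MAP kinases (ERK, JNK and p38) are switched on by phosphorylation of a threonine and a tyrosine in their activation loop, and these phosphatases remove both phosphates. Several of the genes are themselves induced by neuronal activity and by the kinases their products switch off, so they act as negative feedback regulators. The family falls into inducible nuclear enzymes (Dusp1, Dusp2, Dusp4, Dusp5), cytoplasmic enzymes that prefer ERK (Dusp6, Dusp7), enzymes that prefer JNK and p38 (Dusp8, Dusp10, Dusp16) and Dusp14, a small member without the amino-terminal kinase-binding domain of the others.

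Library totals ranged from 14371152 to 21092612 counts in controls, while the SCL libraries held 16405517 to 56786613 counts and the ECL libraries 20210165 to 46449937. By the column headings, the controls were 2 male and 3 female cultures, the SCL group 1 male and 3 female, and the ECL group 3 male and 1 female. The summed level of 8 microglia markers was 320 to 367 CPM in controls, 640 to 1210 CPM after SCL and 559 to 921 CPM after ECL, with 8 of 8 markers called higher after SCL and 4 of 8 after ECL. The summed level of 4 endothelial markers was 18 to 28.5 CPM in controls, 9.74 to 13.2 CPM after SCL and 8.92 to 14.7 CPM after ECL. In each comparison with controls only 1 of these 4 markers had enough counts to be tested, and it was called lower. Of 6 astrocyte markers 3 were called higher after SCL and 2 after ECL, and of 5 oligodendrocyte markers 2 after each lesion. The summed levels of the astrocyte and of the oligodendrocyte markers overlapped between the groups. The sum of 6 general neuron markers overlapped between the groups, at 3280 to 4110, 2800 to 3910 and 2880 to 4220 CPM. Of these 6 markers 1 was called lower after SCL and 2 after ECL, and 0 were called higher. Of the 5 CA1 pyramidal neuron markers 1 was called lower after SCL and 0 were called after ECL. The sum of 3 GABAergic interneuron markers was 404 to 527 CPM in controls, above the 366 to 385 CPM in SCL and 273 to 392 CPM in ECL cultures. The SCL and ECL ranges of this sum overlapped. Of these markers 1 of 3 was called lower for SCL and 2 of 3 for ECL. Among all genes tested 13.1% were called higher and 11.8% lower for SCL, and 15.2% higher and 12.5% lower for ECL. No marker of these lists was at 0 throughout a group. The part of these shifts in the phosphatase values below was not tested.

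Promoter stretches of 4 of the genes are shown because 3 of them (Dusp1, Dusp5 and Dusp6) had lower transcript levels after both lesions, while the promoter of Dusp8, whose transcript was not called, also holds the cAMP response element (CRE). Each stretch runs 5′ to 3′ in the direction of the gene, from 200 to 51 bases before the RefSeq start on GRCm38.p6. Capitals mark the CRE core TGACG on either strand and the CArG box, the element that serum response factor binds. The positions are chr17:26508523-26508672 on the minus strand for Dusp1, chr19:53528945-53529094 on the plus strand for Dusp5, chr10:99263031-99263180 on the plus strand for Dusp6 and chr7:142095335-142095484 on the minus strand for Dusp8.
Dusp1: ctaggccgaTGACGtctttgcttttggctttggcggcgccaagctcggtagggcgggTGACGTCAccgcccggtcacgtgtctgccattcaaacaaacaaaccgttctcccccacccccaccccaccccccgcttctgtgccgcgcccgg
Dusp5: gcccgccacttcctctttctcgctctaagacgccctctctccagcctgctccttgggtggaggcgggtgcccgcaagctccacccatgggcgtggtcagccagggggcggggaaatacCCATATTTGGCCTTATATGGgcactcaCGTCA
Dusp6: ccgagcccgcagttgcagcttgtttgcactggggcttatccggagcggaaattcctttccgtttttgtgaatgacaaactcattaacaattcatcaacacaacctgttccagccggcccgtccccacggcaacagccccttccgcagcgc
Dusp8: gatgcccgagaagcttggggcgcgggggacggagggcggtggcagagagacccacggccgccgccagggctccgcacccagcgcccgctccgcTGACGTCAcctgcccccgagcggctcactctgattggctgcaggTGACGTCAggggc

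A RefSeq promoter was matched for 9 of the 10 genes, all except Dusp4, and motifs were searched on both strands of the 250 bases before each start. The full CRE, TGACGTCA, was found in the Dusp1 promoter, from 143 to 136 bases before the start, and at 2 places in the Dusp8 promoter, from 107 to 100 and from 63 to 56 bases before the start. This element occurs in 1.62% of all 27025 promoters of this length. The shorter core TGACG, which every full CRE contains, was in the promoters of Dusp1, Dusp5, Dusp8 and Dusp16 and in 17.9% of all promoters. Dusp5 held 2 adjacent CArG boxes, CCATATTTGG from 82 to 73 and CCTTATATGG from 72 to 63 bases before the start, a motif present in 1.4% of all promoters. The GC box GGGCGG was in 7 of the 9 promoters (32.9% of all). The letters of the AP-1 site (TGANTCA, 6.87% of all), the TATA box (TATAAA, 13%) and the ETS site (CCGGAAGT, 2.93%) were in none of the 9 windows. The capitals of the Dusp1 and Dusp8 stretches mark the same element, and the Dusp6 stretch holds no capitals. Whether these elements bear on the transcript levels was not tested.

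Transcripts of 3 phosphatases, Dusp1, Dusp5 and Dusp6, were lower 3 days after SCL and after ECL than in non-lesioned controls, and none was called higher. Of the 10 genes, 8 reached the mean normalized count of 150 that was required for testing, and 3 of these 8 were called lower after each lesion (edgeR, adjusted p under 0.05). Among all genes tested, 24.9% were called after SCL, with 11.8% lower, and 27.8% after ECL, with 12.5% lower. The groups did not overlap for Dusp1 and Dusp6 after both lesions, whereas 11.5% of all genes tested after SCL and 12.2% after ECL lay lower without overlap. At an unadjusted p under 0.05 there were 3 of the 8 genes after SCL (38.8% of all genes) and 4 after ECL (40.3%). For the 8 phosphatases the middle (median) log2 value was −0.21 for SCL and −0.31 for ECL, beside 0.01 and −0.01 for all genes. Both comparisons use the same 5 controls, so they are not independent of each other. In RNA from whole CA1 tissue, fewer cells of a type and less RNA per cell cannot be told apart.

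**Figure D1:**
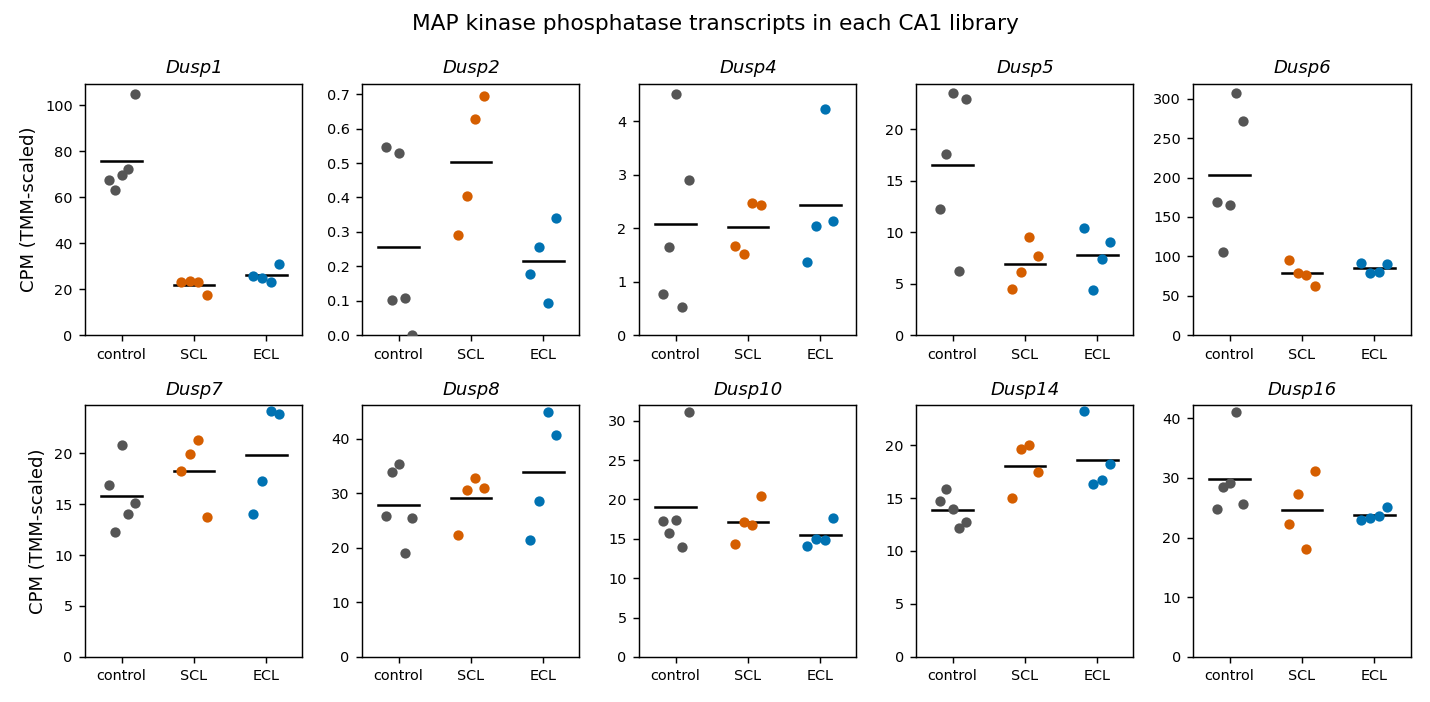
Level of each of the 10 phosphatase transcripts (CPM, linear axes from 0) in the 5 control, 4 SCL and 4 ECL libraries. Each point is a library and each bar the group mean. The Dusp1 points of lesioned cultures lie between 17.3 and 30.8 CPM and all controls at 63.1 CPM or above.

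Dusp1 encodes the inducible nuclear phosphatase that acts on p38, JNK and ERK. The gene lies on the minus strand of chr17:26505590-26562128 (GRCm38). Its level in the controls was 67.5, 63.1, 69.7, 72.4 and 105 CPM in replicates 1 to 5. After SCL it was 23, 23.4, 23 and 17.3 CPM, and after ECL it was 25.8, 25, 22.9 and 30.8 CPM. Every lesioned culture was below every control, and the 3 group means were 75.5 ± 16.7 (SD, n = 5), 21.7 ± 2.93 (n = 4) and 26.1 ± 3.32 CPM (n = 4). The log2 fold change was −1.80 ± 0.18 (SE) after SCL, a level 0.288 times that of controls (adjusted p = 0.000189, edgeR). After ECL it was −1.52 ± 0.18, or 0.348 times (adjusted p = 0.00012, edgeR).

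Dusp6, the cytoplasmic ERK phosphatase, was the most abundant transcript of the family. It lies on chr10:99263231-99267489 (plus strand). The controls held 169, 105, 165, 307 and 272 CPM, the SCL cultures 95.2, 79.4, 76.4 and 62.8 CPM, and the ECL cultures 91.9, 79.3, 80.7 and 90.2 CPM. The groups did not overlap, although control replicate 2 was close to the highest lesioned culture. SCL cultures held 0.387 times the control level, a log2 fold change of −1.37 ± 0.26 (adjusted p = 0.00453, edgeR). ECL cultures held 0.423 times the control level, a log2 fold change of −1.24 ± 0.25 (adjusted p = 0.00296, edgeR). The spread of Dusp6 was wide in the controls, where the highest library held 2.92 times the lowest, and narrow in the lesioned cultures, where the same ratio was 1.52 after SCL and 1.16 after ECL. The coefficient of variation was 40.9%, 17% and 7.53% in the 3 groups. This difference in spread was not tested.

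Dusp5 encodes a nuclear phosphatase selective for ERK. It lies on chr19:53529109-53542431 (plus strand), and 22.1% of its exon bases overlap a gene on the opposite strand, AC137853.2. The reads were counted without strand, so the 2 genes cannot be told apart there. The controls held 12.3, 17.6, 23.5, 6.2 and 23 CPM, the SCL cultures 4.44, 6.12, 9.56 and 7.66 CPM, and the ECL cultures 10.4, 4.42, 7.41 and 9.04 CPM. Control replicate 4 lay among the lesioned cultures, and the other 4 controls lay above all of them. SCL cultures held 0.419 times the control level, a log2 fold change of −1.25 ± 0.37 (adjusted p = 0.0262, edgeR), and ECL cultures 0.477 times, −1.07 ± 0.36 (adjusted p = 0.0414, edgeR). These calls were close to the threshold: without control replicate 3, control replicate 5, SCL replicate 1 or SCL replicate 2 the adjusted p after SCL was 0.0585, 0.0626, 0.0739 and 0.0696. After ECL it was 0.0517 to 0.12 without control replicate 2, 3 or 5 or any of the 4 ECL replicates. Of the 19 other settings tried per lesion, 6 after SCL and 12 after ECL did not call Dusp5.

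The other inducible nuclear members were scarce. Dusp4 had between 10 and 94 counts per library, 2.07 ± 1.64 CPM in controls, 2.02 ± 0.497 CPM after SCL and 2.44 ± 1.24 CPM after ECL. It was under the minimum of 150, and in a fit with a minimum of 10 the fitted log2 fold change was 0.05 ± 0.55 for SCL (adjusted p = 0.964, edgeR) and 0.32 ± 0.56 for ECL (adjusted p = 0.727, edgeR). Dusp2 had 0 to 24 counts per library. Its level was 0 to 0.546 CPM in controls, 0.291 to 0.696 CPM after SCL and 0.0938 to 0.341 CPM after ECL. The control library without a Dusp2 count allows a level of up to 0.197 CPM by a floor of 3 counts, which covers counting error only. Dusp2 did not reach the minimum of 10 for a fit against controls.

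Dusp7, the close cytoplasmic relative of Dusp6, was not called after either lesion. Its level was 16.9, 12.3, 20.8, 14 and 15.1 CPM in controls, 18.2, 19.9, 21.3 and 13.7 CPM after SCL, and 14, 17.3, 24.1 and 23.8 CPM after ECL, and the groups overlapped. The log2 fold change of Dusp7 was 0.21 after SCL (95% interval −0.23 to 0.65, adjusted p = 0.478, edgeR) and 0.33 after ECL (−0.15 to 0.81, adjusted p = 0.288, edgeR). The lower ends of these intervals lie far above the fitted changes of Dusp6. Within each library the length-corrected Dusp6 level was 8.49 to 23.5 times that of Dusp7 in controls, 3.84 to 5.61 times after SCL and 3.59 to 7.03 times after ECL. The ratio was lower in all 8 lesioned cultures than in any control. The third cytoplasmic relative, Dusp9, was nearly absent, with means of 0.195, 0.163 and 0.244 CPM in the 3 groups.

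**Figure D2:**
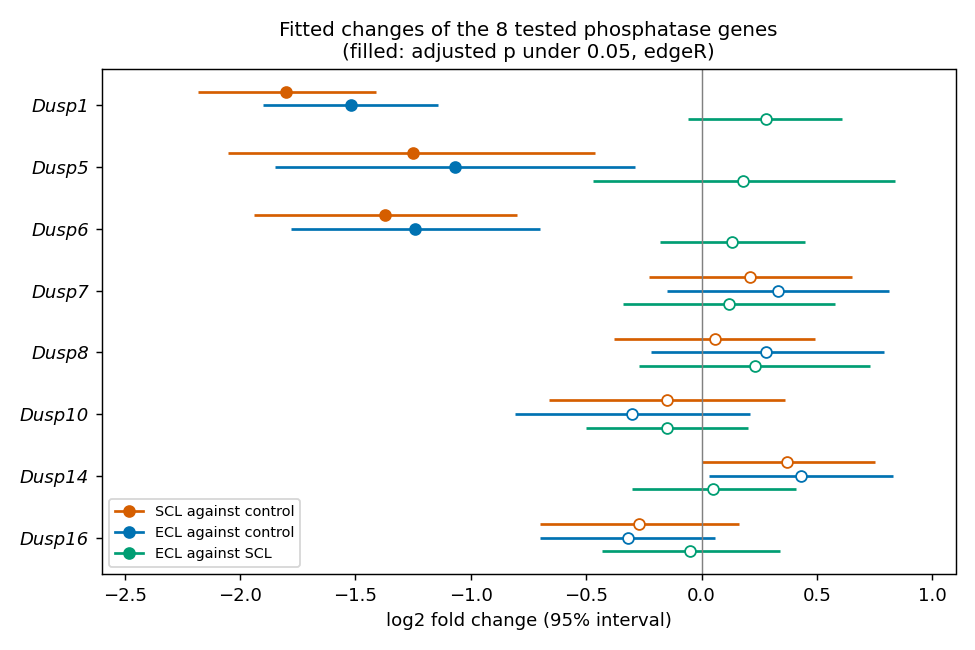
Log2 fold changes with 95% intervals of the 8 tested phosphatase genes for SCL against control, ECL against control and ECL against SCL (edgeR), with filled points for an adjusted p under 0.05. Filled points belong to Dusp1, Dusp5 and Dusp6 in the comparisons with controls, and all 8 intervals of ECL against SCL include 0.

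The 3 phosphatases that prefer JNK and p38 were not called after either lesion, and in each of them the lesioned cultures overlapped the controls. Dusp8, a neuronal phosphatase of JNK and p38, ranged from 19 to 35.4 CPM in controls, from 22.3 to 32.8 CPM after SCL and from 21.5 to 44.8 CPM after ECL. Its log2 fold change was 0.06 (95% interval −0.38 to 0.49) after SCL and 0.28 (−0.22 to 0.79) after ECL. Dusp10 ranged from 13.9 to 31.1 CPM in controls, with the highest value in replicate 5, from 14.4 to 20.4 CPM after SCL and from 14.1 to 17.7 CPM after ECL. Its log2 fold change was −0.15 (−0.66 to 0.36) after SCL and −0.30 (−0.81 to 0.21) after ECL. Without control replicate 5 these became 0.09 and −0.06. Dusp16 ranged from 24.7 to 41 CPM in controls, from 18 to 31.1 CPM after SCL and from 23 to 25.1 CPM after ECL. Its log2 fold change was −0.27 (−0.70 to 0.16) after SCL and −0.32 (−0.70 to 0.06) after ECL. The adjusted p of these 6 values lay between 0.189 and 0.864 (edgeR). None of the 6 intervals reaches the fitted changes of Dusp1 or Dusp6. The interval of Dusp6 for ECL (−1.78 to −0.70) does overlap that of Dusp10. Those of Dusp5 (−2.05 to −0.46 for SCL, −1.85 to −0.29 for ECL) overlap those of Dusp10 and Dusp16. Differences between these genes were not tested.

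Dusp14 had the highest fitted change of the 8 genes after each lesion, but neither value passed the threshold. Its level was 14.7, 15.9, 14, 12.2 and 12.7 CPM in controls, 15, 19.6, 20 and 17.5 CPM after SCL, and 23.2, 16.3, 16.7 and 18.2 CPM after ECL. After ECL all 4 cultures lay above all 5 controls, as did 12.8% of all genes tested, whereas after SCL the lowest culture lay within the control range. The log2 fold change of Dusp14 was 0.37 ± 0.17 for SCL (adjusted p = 0.132, edgeR) and 0.43 ± 0.19 for ECL (adjusted p = 0.104, edgeR). DESeq2 placed it just past the threshold, at 0.44 (adjusted p = 0.0496) and 0.49 (adjusted p = 0.0489).

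**Figure D3:**
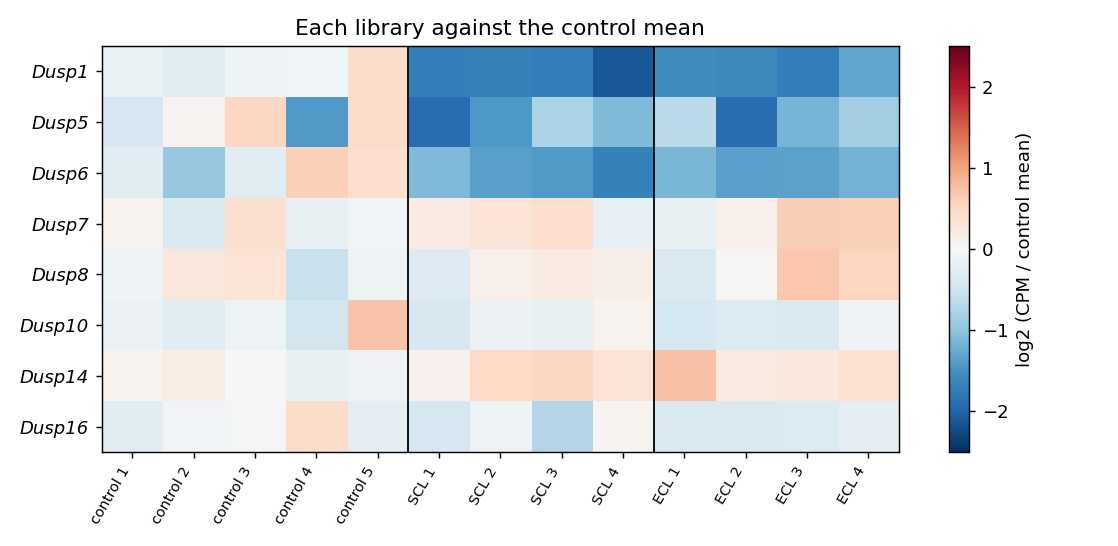
Log2 ratio of the CPM in each of the 13 libraries (columns) to the control mean for the 8 tested genes (rows), blue for lower and red for higher. Control values span −1.41 to 0.7 and those of lesioned cultures −2.13 to 0.74, and the Dusp1 and Dusp6 rows are blue in all 8 lesioned cultures.

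The direct comparison of ECL with SCL asks whether loss of the entorhinal or the CA3 input leaves a different phosphatase profile. Of the 8 tested genes 0 were called, 0 had an unadjusted p under 0.05, and 0 were called by DESeq2. For 0 of the 8 did the ECL cultures lie wholly above or below the SCL cultures, as 1.55% of all genes tested did above and 2.27% below. Among all 12232 genes tested edgeR called 0%, with 7.33% at an unadjusted p under 0.05, and DESeq2 called 71 genes. The log2 fold change of ECL against SCL was 0.28 for Dusp1 (95% interval −0.06 to 0.61, adjusted p = 0.738, edgeR). For Dusp5 it was 0.18 (−0.47 to 0.84, adjusted p = 0.931, edgeR) and for Dusp6 it was 0.13 (−0.18 to 0.45, adjusted p = 0.883, edgeR). The interval of Dusp1 thus reaches from slightly lower after ECL to 0.61 higher on the log2 scale, and that of Dusp5 is wider. The values of the other 5 genes lay between −0.15 for Dusp10 and 0.23 for Dusp8. In the fit with a minimum of 10, Dusp2 was at −1.19 ± 0.53 (95% interval −2.33 to −0.04, adjusted p = 0.687, edgeR), on at most 24 counts per library. This unadjusted interval leaves out 0, but the value did not pass the adjustment over all genes.

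To compare genes with each other, levels were divided by exon length (CPM per kb). In controls Dusp6 led with a mean of 65 CPM per kb, followed by Dusp1 with 22.8 CPM per kb, and neither range touched that of the next gene. The next 6 genes were Dusp14 (7.15), Dusp5 (6.68), Dusp10 (6.27), Dusp8 (5.74), Dusp7 (4.71) and Dusp16 (3.82 CPM per kb), and each of these overlapped its neighbour. Dusp4 (0.754) and Dusp2 (0.128 CPM per kb) came last, with overlapping ranges. After SCL the order of the first genes was Dusp6 (25), Dusp14 (9.27), Dusp1 (6.55) and Dusp8 (5.98 CPM per kb), and the ranges of Dusp6, Dusp14 and Dusp1 did not overlap. After ECL it was Dusp6 (27.3), Dusp14 (9.57), Dusp1 (7.89) and Dusp8 (6.95 CPM per kb), and from Dusp14 to Dusp8 the ranges of neighbours overlapped. Dusp14 stood above Dusp1 in 4 of 4 SCL and 4 of 4 ECL libraries, whereas Dusp1 stood above Dusp14 in 5 of 5 controls. Dusp5 had the rank 4 in controls, 8 after SCL and 7 after ECL, and its range overlapped that of Dusp16 in both lesion groups. The summed level of the 10 genes was 88.1 to 159 CPM per kb in controls, 59.7 to 67.6 CPM per kb after SCL and 62.9 to 76.5 CPM per kb after ECL. Dusp1 made up 14.9% to 21.6% of this sum in controls, 8.74% to 10.7% after SCL and 9.87% to 12.1% after ECL. The share of Dusp6 overlapped between the groups, at 38.1% to 66.8%, 33.6% to 46.6% and 36.7% to 41.9%.

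**Figure D4:**
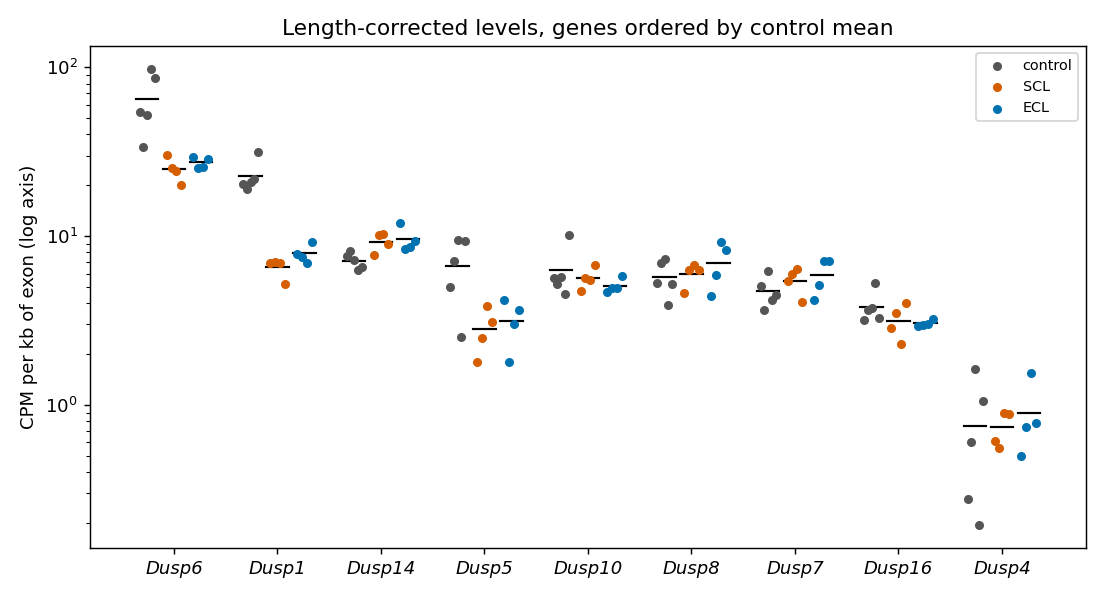
Length-corrected levels (CPM per kb of exon, log axis) of 9 phosphatase genes in control, SCL and ECL libraries, ordered by the control mean, with a bar at each group mean. Dusp2 is left out because a library had no count. Dusp6 leads in all 3 groups, and Dusp1 drops from a control mean of 22.8 to 6.55 and 7.89 CPM per kb.

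The transcripts with profiles closest to those of the 3 lower phosphatases were ranked by the root mean square difference of log2 CPM, centred on the control mean, over the 13 libraries and 11156 genes. Closest to Dusp1 were Btg2 at 0.26, an early-response gene that restrains proliferation, Arc at 0.37, an activity-induced synaptic gene, and 9530056E24Rik at 0.39. The log2 fold changes of Btg2 were −1.51 and −1.26 after SCL and ECL, and those of Arc were −1.95 and −1.23. Closest to Dusp6 were Gm28791 at 0.23, Clasp2 at 0.25, which encodes a microtubule plus-end protein, and Fry at 0.25. Dusp5 had less close matches, Rasl11b at 0.38, Gm47087 at 0.41 and Gm42853 at 0.43.

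Other genes of the MAP kinase pathway were taken from 10 lists that together name 113 genes, of which 112 were in the count tables. Of 88 tested for SCL 6 were called higher and 13 lower (21.6%), and of 88 tested for ECL 8 were called higher and 16 lower (27.3%), close to the shares of 24.9% and 27.8% among all genes. Their median log2 fold change was −0.15 in both comparisons. For ECL against SCL 0 of 92 were called by edgeR, 7 had an unadjusted p under 0.05 and DESeq2 called 1.

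The ERK-responsive transcripts, which rise when ERK is active, were mostly lower, like the 3 phosphatases. The activity of ERK itself was not measured. Of 10 tested, 6 were called lower and none higher after SCL (60%, median −0.65), and ECL gave 6 lower and 1 higher (70%, median −0.74). Among all genes tested 24.9% were called for SCL and 27.8% for ECL. Egr1, an immediate early transcription factor, went from 477 ± 89.7 CPM in controls to 99.8 ± 19.8 CPM after SCL and 112 ± 16.7 CPM after ECL. Its log2 fold change was −2.26 (adjusted p = 4.99e-05, edgeR) and −2.08 (adjusted p = 2.18e-05, edgeR). Fos, a subunit of the AP-1 factor, fell by 1.53 and 1.93 on the log2 scale (adjusted p = 0.00087 and 9.01e-05, edgeR). The exception was Ccnd1, which encodes cyclin D1 and was higher after ECL by 0.94 (adjusted p = 0.00656, edgeR). For SCL Ccnd1 was at 0.30 (adjusted p = 0.357, edgeR). Ccnd1 was named after its value was seen.

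The Sprouty and Spred inhibitors act on the same pathway upstream of ERK. Of 5 tested, 1 was lower after SCL (20%) and 2 were lower after ECL (40%). Among all genes tested 11.8% and 12.5% were called lower. Spry2, which also belongs to the ERK-responsive list, went from 418 ± 250 CPM in controls to 120 ± 48.9 CPM after SCL and 73 ± 22.5 CPM after ECL. The fitted log2 values were −1.80 ± 0.42 (adjusted p = 0.00945, edgeR) and −2.51 ± 0.39 (adjusted p = 0.000658, edgeR). Like Dusp6, it varied widely among the controls, from 210 to 710 CPM. Spred2, a relative of Spry2, was lower after ECL, with −0.55 ± 0.17 (adjusted p = 0.0284, edgeR). For SCL Spred2 was at −0.39 ± 0.14 (adjusted p = 0.0637, edgeR).

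The remaining phosphatases were called at shares of at most 20%, beside 24.9% (SCL) and 27.8% (ECL) of all genes tested. Of the other dual-specificity phosphatases 0 of 9 were called after SCL by edgeR, where 1 had an unadjusted p under 0.05 and DESeq2 called 1. After ECL 1 of 10 was higher, Dusp23 (0.92 ± 0.29, adjusted p = 0.0326, edgeR), and 1 was lower, Dusp12 (−0.79 ± 0.25, adjusted p = 0.0302, edgeR). For SCL Dusp12 was at −0.47 ± 0.24 (adjusted p = 0.165, edgeR), and Dusp23 had too few counts to be tested. Of 7 other MAP kinase phosphatases, such as the tyrosine phosphatases and the protein phosphatases PP2A and PPM1, 0 were called after SCL by edgeR, where 1 had an unadjusted p under 0.05 and DESeq2 called 0. After ECL Ppm1b was lower, with −0.46 ± 0.13 (adjusted p = 0.0174, edgeR). For SCL Ppm1b was at −0.31 ± 0.12 (adjusted p = 0.0783, edgeR).

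The kinases on which the phosphatases act were called in both directions. Among all genes tested 24.9% were called for SCL and 27.8% for ECL. Of 11 MAP kinases tested for SCL 1 was higher and 2 were lower (27.3%), and of 10 tested for ECL 2 were lower (20%). The 2 lower genes were the atypical kinases Mapk4 (−0.85 ± 0.13 and −0.74 ± 0.20) and Nlk (−0.78 ± 0.18 and −0.93 ± 0.22). Of 7 MAP kinase kinases 28.6% were called for SCL and 14.3% for ECL. Map2k1, an activator of ERK, was higher in SCL cultures (0.61 ± 0.15, adjusted p = 0.0122, edgeR) and in ECL cultures (0.47 ± 0.14, adjusted p = 0.0256, edgeR). Map2k6, an activator of p38, was lower after SCL (−0.99 ± 0.29, adjusted p = 0.0261, edgeR). For ECL Map2k6 was at −0.68 ± 0.28 (adjusted p = 0.0901, edgeR). Of 14 Ras and Raf genes 21.4% were called for SCL and 7.14% for ECL. Among them Sos1, an exchange factor that activates Ras, was lower after SCL (−0.48 ± 0.13, adjusted p = 0.0214, edgeR). For ECL Sos1 was at −0.36 ± 0.14 (adjusted p = 0.0633, edgeR).

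The stress-arm kinases that act above JNK and p38 had 0 of 9 called after SCL by edgeR, with 2 at an unadjusted p under 0.05 and 0 called by DESeq2. After ECL 2 of 9 were lower (22.2%), Map3k1 (−0.96 ± 0.26) and Map3k7 (−0.39 ± 0.14). For SCL Map3k1 was at −0.60 ± 0.27 and Map3k7 at −0.21 ± 0.13, neither called. Of 11 scaffolds 2 were higher and 1 was lower in SCL cultures (27.3%), and in ECL cultures 3 were higher and 2 lower (45.5%). Among all genes tested 24.9% were called for SCL and 27.8% for ECL. Lamtor1, part of a lysosomal scaffold of the ERK pathway, was higher after both lesions, by 0.64 ± 0.17 and 0.78 ± 0.17. Its partner Lamtor3 was also higher (0.71 ± 0.16 and 0.55 ± 0.19). Lamtor2 of the same complex, named after its value was seen, was lower after ECL (−0.57 ± 0.14, adjusted p = 0.00935, edgeR) and was at −0.11 ± 0.18 after SCL (adjusted p = 0.686, edgeR). Of 7 kinases activated by MAP kinases 2 were higher after each lesion, Rps6ka1 (0.96 ± 0.28 and 0.82 ± 0.29) and Mapkapk2 (0.71 ± 0.24 and 0.68 ± 0.24). This share of 28.6% is near the 24.9% and 27.8% called among all genes tested.

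**Figure D5:**
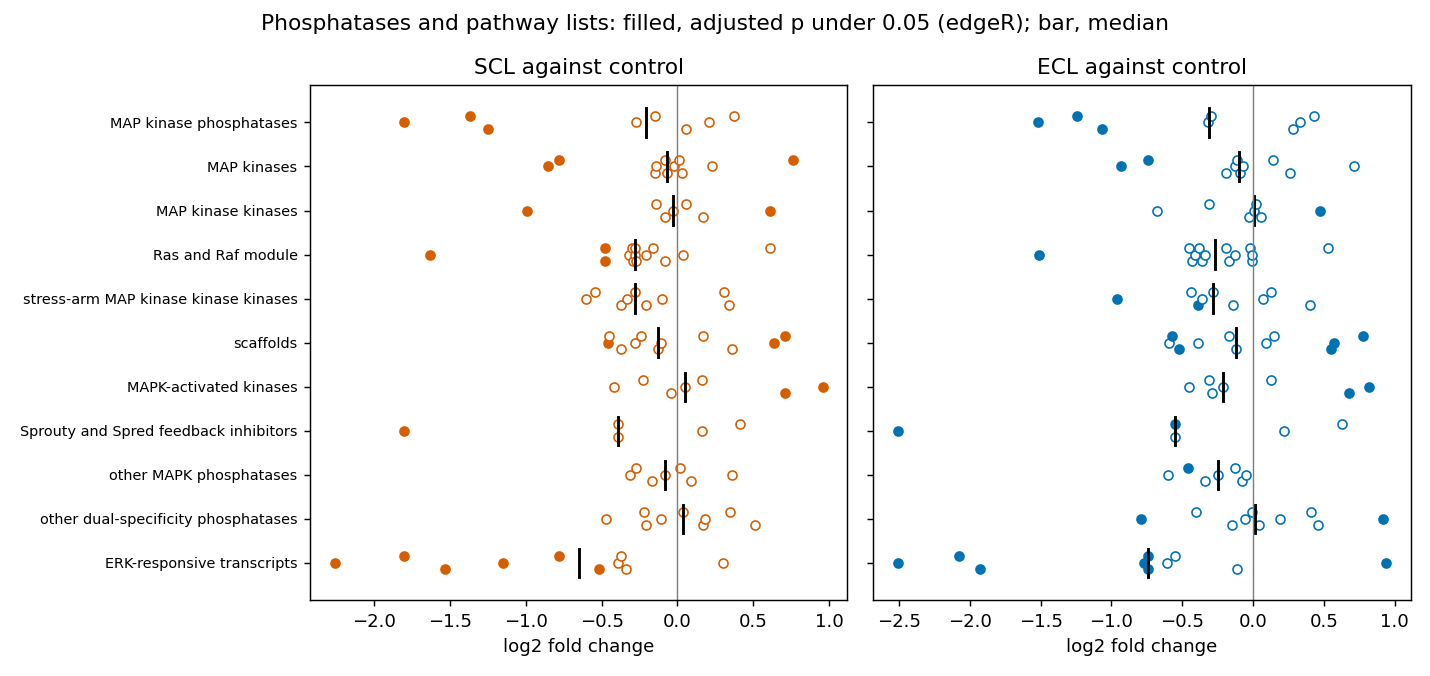
Log2 fold changes of the tested phosphatase genes (top line) and of 10 MAP kinase pathway lists for SCL and ECL against control, with filled points for an adjusted p under 0.05 (edgeR) and a bar at each median. The ERK-responsive list has the lowest medians of the 10 lists, −0.65 and −0.74.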

How the data were processed

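Counts from 13 CA1 libraries (5 control, 4 SCL, 4 ECL) were analysed. cDNA from polyadenylated RNA was amplified with 12 PCR cycles and libraries with 10, and sequencing gave paired reads of 150 bp. The authors trimmed reads with cutadapt 3.5, mapped them with STAR 2.7.8a to mm10 and counted them without strand with featureCounts 2.0.1 on GENCODE M25, per the methods and the submitters' processing notes. The deposited values are raw counts per gene symbol. Even numbers made up 63% to 74.3% of the counts from 1 to 20, so each mate of a read pair was probably counted on its own.

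Each comparison was fitted on its own libraries with edgeR 4.0.16 in R 4.3.3 (quasi-likelihood, two-sided, TMM over the genes tested) for genes whose mean normalized count reached 150, with Benjamini-Hochberg adjustment over all genes tested and a threshold of 0.05. SE is the size of the log2 fold change over the root of F, and CPM are scaled by TMM factors over all 13 libraries (11649 genes). The likeness ranking added 0.5 to the CPM. The code was tested on simulated data. The highest share of equal counts between libraries was 0.495% over 78 pairs, so no library was counted as a duplicate.

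Loci and exon lengths came from GENCODE M21 (GRCm38), and promoters from RefSeq. The 10 genes, the lists and the alternatives were chosen with earlier results of these data known. Named pathway genes are the 2 called genes with the smallest adjusted p per list and comparison at most. A named pathway gene is not reported here. Alternatives were DESeq2 1.42.0, other scalings and minima, a single fit, the replicate number as a block, a sex term, halved counts, each library left out and, added after seeing the data, the heading number as a term. Correlations of same-numbered cultures' deviations ran from −0.17 to 0.54, so the numbers were not taken to pair them. No library was left out.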

Additional observations from a re-analysis of the deposited data

Results flagged for a closer look

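Of 29 groups of 4 or 5 libraries examined for the 10 genes, 4 held a library far from the others by Dixon's criterion, which chance alone gives in about 1 of 20 groups. Dusp1 in control replicate 5 was at 105 CPM, with the other controls at 63.1 to 72.4 CPM. Without that library the Dusp1 log2 fold change was −1.65 for SCL (adjusted p = 0.000379, edgeR) and −1.38 for ECL (adjusted p = 0.000337, edgeR). Dusp1 in SCL replicate 4 was at 17.3 CPM, with the other SCL cultures at 23 to 23.4 CPM, and without it the log2 fold change was −1.70 (adjusted p = 0.00064, edgeR). Dusp10 in control replicate 5 was at 31.1 CPM, with the other controls at 13.9 to 17.4 CPM, and without that library its log2 fold change was 0.09 after SCL and −0.06 after ECL. Dusp16 in control replicate 4 was at 41 CPM, with the other controls at 24.7 to 29.1 CPM, and without it the log2 fold change was −0.14 after SCL and −0.19 after ECL.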

How the results depend on the processing

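Over 19 alternatives per lesion, 2 to 4 of the 10 genes were called, and 2 to 3 when a library was left out. Dusp1 and Dusp6 were called in all of them, Dusp1 at −1.86 to −1.59 after SCL and −1.60 to −1.34 after ECL, Dusp6 at −1.54 to −1.15 and −1.41 to −0.98. Dusp5 stayed lower (−1.47 to −1.03 and −1.29 to −0.84) but lost its call in 6 and 12 alternatives. With the replicate number as a block 2 genes were called per lesion, and Dusp5 was at −1.03 (adjusted p = 0.0532, edgeR) and −0.84 (adjusted p = 0.145). Dusp14 was called by DESeq2 and, at 0.58 and 0.62, with TMM over all symbols, which moved the median of all genes to 0.21 and 0.18 and the share of calls that were higher from 52.8% to 80.8% and from 54.8% to 77.8%. For ECL against SCL 0 of the 10 were called in all 18 alternatives. Signs turned only among values that were not called: Dusp10 after SCL with TMM over all symbols (0.04), no filter (0.04), the replicate block (0.09) and without control replicate 5 (leaving out libraries, −0.25 to 0.09), and Dusp8 without control replicate 4 (−0.06 to 0.17). For ECL against SCL they turned for Dusp8 with a sex term (−0.06), Dusp14 without ECL replicate 1 (−0.06) or SCL replicate 1 (−0.02, range −0.06 to 0.12) and Dusp16 without SCL replicate 4 (−0.17 to 0.09). Why these values changed was not tested. Over all genes the number called after SCL was 5390 without a filter, 1824 with the heading number and 1679 without SCL replicate 3, against 2848. After ECL it was 4854 with a minimum of 10 and 8034 without a filter, against 3114. For ECL against SCL it was 217 without a filter, 54 without SCL replicate 3, 2 without ECL replicate 4 and 1 each with a single fit and a sex term. Depth limits Dusp2 and Dusp4, with at most 24 and 94 counts per library.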
